A study of Mus musculus with 5 samples.

Results

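Ligands and receptors of the tumour necrosis factor (TNF) superfamily were followed in tumour-associated macrophages of MyD88-ko and wild-type mice. The genes were given by name: the receptors Tnfrsf1a, Tnfrsf1b, Cd40, Fas and Tnfrsf14 and the ligands Tnfsf4, Tnfsf9, Tnfsf12, Tnfsf13b and Tnfsf14. Of these 10 genes, 9 had a probe set assigned to that gene alone, 1 each, out of 19505 genes measured. Tnfsf12 had none and was not analysed here. The arrays compared 3 samples labelled MyD88-ko, for a knockout of the adaptor MyD88, with 2 wild-type (WT) samples. All mice were C57BL/6, female or male, 6 to 12 weeks old, and carried B16-F10 cells, a mouse melanoma line, injected under the skin. The macrophages were sorted at day 15 as CD45+ F4/80+ CD11b+ cells without CD3, B220 and NK1.1, and the growth protocol names spleen cells as their source although the samples are labelled as macrophages of the tumour. The labels do not say how MyD88 was removed or whether each array is a separate mouse, so a p-value here reflects array-to-array spread alone, part of which may be technical.

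TNF superfamily ligands are mostly membrane proteins that form trimers and engage receptors of the matching family on neighbouring cells. The receptors recruit TRAF proteins, which lead to NF-κB, or, where they carry a death domain as Tnfrsf1a and Fas do, adaptors that can lead to cell death. MyD88 carries signals of Toll-like receptors and of the IL-1 receptor family, which also lead to NF-κB, so many genes of the family are known targets of both routes in macrophages.

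Promoters of 3 receptors are shown because they cover the 2 TNF receptors and the death receptor Fas, on which the comparison of receptors turns. The sequences are RefSeq's for GRCm38.p6, read 5′ to 3′ on the gene's strand and ending at the base before the annotated start of the gene. Tnfrsf1a lies at chr6:125349473-125349722 (plus strand), Tnfrsf1b at chr4:145246871-145247120 (minus strand) and Fas at chr19:34290409-34290646 (plus strand). Capitals mark matches to GGG and CC with any 5 bases between them, a loose form of the NF-κB site, on either strand.
Tnfrsf1a: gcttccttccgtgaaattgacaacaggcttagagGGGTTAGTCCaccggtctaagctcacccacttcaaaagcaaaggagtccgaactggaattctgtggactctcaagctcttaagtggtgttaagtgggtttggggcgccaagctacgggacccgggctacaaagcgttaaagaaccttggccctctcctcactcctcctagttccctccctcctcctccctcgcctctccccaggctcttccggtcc
Tnfrsf1b: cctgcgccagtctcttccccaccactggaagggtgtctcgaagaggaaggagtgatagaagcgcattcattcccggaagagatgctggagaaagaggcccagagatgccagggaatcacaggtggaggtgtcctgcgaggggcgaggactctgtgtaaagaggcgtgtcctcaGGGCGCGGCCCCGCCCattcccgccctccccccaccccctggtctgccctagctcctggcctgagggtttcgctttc
Fas: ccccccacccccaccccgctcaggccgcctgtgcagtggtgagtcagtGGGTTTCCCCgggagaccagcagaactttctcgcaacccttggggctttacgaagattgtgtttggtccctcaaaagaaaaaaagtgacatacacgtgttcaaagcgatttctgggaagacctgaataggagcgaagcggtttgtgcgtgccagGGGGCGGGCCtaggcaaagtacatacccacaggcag
In Tnfrsf1b the 3 matches overlap in 1 block, and in Fas the match GGGTTTCCCC reads on both strands. Of the 6 genes with a promoter in the table, 5 held at least 1 match in the 300 bases around the start, and Tnfsf13b held none. The motif is common: 50.8% of all 32851 promoters of that length held it, so its presence says little about these genes.

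The values are log2 after RMA, the authors' normalization. A gene was called above background on an array where it exceeded the 95th percentile of its 5222 negative controls, a limit that lay between 6.55 and 6.74 on the MyD88-ko arrays and at 6.91 and 6.96 on the WT arrays. Myd88 itself was at 7.73, 7.01 and 7.58 on the MyD88-ko arrays and at 8.46 and 8.40 on the WT arrays, a log2 difference of -0.99 (limma, adjusted p = 0.179). Its signal was above the limit on all 3 MyD88-ko arrays, and whether its probes lie in the deleted part is not stated in the labels. Of 10 measured macrophage markers, 9 were above the limit on all arrays. In contrast, all measured markers of T cells (7), B cells (4) and NK cells (6) were under it on all 5. Among these lymphocyte markers only Klrd1, of the NK list, passed the test over all genes. It was lower in MyD88-ko, with a log2 difference of -1.70 (limma, adjusted p = 0.030), where 0.190% of all genes passed. Of 8 markers of the B16 melanoma, 6 were above the limit on all arrays and the others on some, despite the CD45+ gate. Their mean levels were 8.40 to 8.85 in MyD88-ko and 8.24 to 8.79 in WT. Of the 8, 7 had a positive difference, where 46.9% of all genes had a negative one. The part of these melanoma markers in the results was not tested.

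Most of the TNF superfamily genes measured lay lower in MyD88-ko, but none of the differences passed the test over all genes. Of the 9 genes, 8 had a negative difference, with a median log2 difference of -0.36, against 46.9% negative and a median of 0.015 over all 19505 genes. None of the 9 passed (limma, Benjamini-Hochberg adjusted p under 0.05), where 0.190% of all genes did. At an unadjusted limma p under 0.05, 4 were lower (Tnfrsf1b, Fas, Tnfsf4 and Tnfsf9) and 0 higher, where 6.39% of all genes were lower and 6.16% higher. In 6 of the 9 every MyD88-ko array lay under both WT arrays, where 12.9% of all genes did so. Without WT replicate 2, 1 gene was lower at an unadjusted p under 0.05. The genes were chosen with earlier results of these data known, so these counts are a description of the list.

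**Figure D1:**
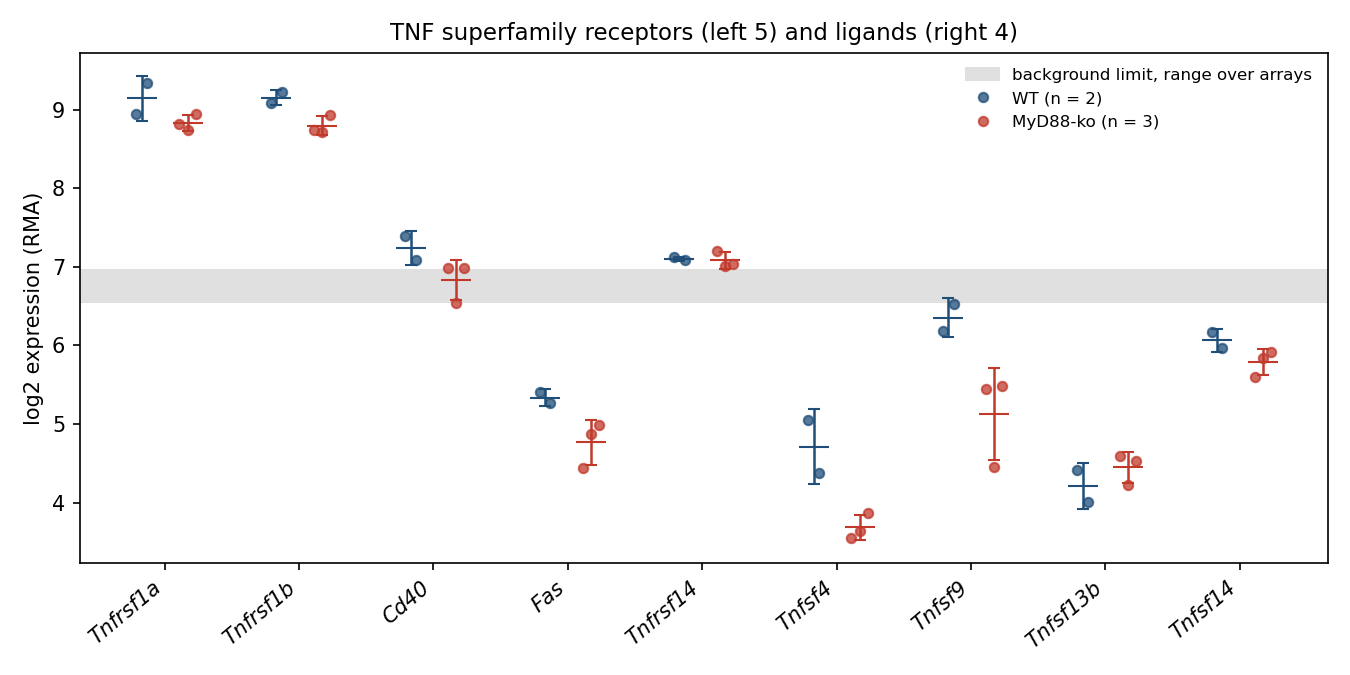
Log2 expression (RMA) of the 9 measured genes on each array; points are arrays, horizontal bars group means and error bars SDs (WT n = 2, MyD88-ko n = 3), and the grey band spans the background limit of the 5 arrays. Tnfrsf1a, Tnfrsf1b and Tnfrsf14 lie above the band on all arrays, and Fas and the 4 ligands lie below the limit on all arrays.

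The 2 receptors for TNF were the clearest signals of the set against background, and both differed little. Tnfrsf1a, the death-domain receptor found on nearly all cells, was at 8.82, 8.74 and 8.95 in MyD88-ko and at 8.95 and 9.34 in WT. The groups touched, since MyD88-ko replicate 3 and WT replicate 1 had the same value. The difference was -0.31 (95% interval -0.67 to 0.06; limma, adjusted p = 0.474), and it ranged from -0.51 to -0.11 when each array was left out. Tnfrsf1b, the receptor without a death domain that is common on leukocytes, was at 8.74, 8.72 and 8.93 in MyD88-ko and at 9.09 and 9.22 in WT. All MyD88-ko arrays were below both WT arrays. MyD88-ko averaged 8.80 ± 0.12 (SD, n = 3) against 9.15 ± 0.094 (SD, n = 2) in WT, 1.28-fold lower in MyD88-ko (95% interval of the log2 difference -0.64 to -0.07; limma, adjusted p = 0.297).

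Cd40 and Tnfrsf14, receptors for signals from lymphocytes, lay close to the limit. Cd40, which receives CD40 ligand from helper T cells and licenses antigen-presenting cells, was at 6.98, 6.54 and 6.98 in MyD88-ko and at 7.39 and 7.09 in WT. The groups did not overlap, and MyD88-ko replicate 2 was the array under its limit. The log2 difference was -0.41, 1.32-fold lower with 2 of 3 MyD88-ko arrays above background (95% interval -0.85 to 0.04; limma, adjusted p = 0.441), and -0.25 without WT replicate 1 or -0.26 without MyD88-ko replicate 2. Tnfrsf14 (HVEM), the receptor that binds both Tnfsf14 and the inhibitory receptor Btla, was at 7.20, 7.01 and 7.04 in MyD88-ko and at 7.12 and 7.08 in WT. The WT values lay inside the range of the MyD88-ko values. The difference of -0.02 had a 95% interval of -0.29 to 0.24 (limma, adjusted p = 0.957), and its sign turned with the scaling (0.038 with equal array medians).

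Fas, the receptor through which Fas ligand kills cells, was under the limit on all arrays, so no fold is given. It was at 4.44, 4.87 and 4.99 in MyD88-ko and at 5.41 and 5.26 in WT, between the 74.5th and 82.3rd percentile of the negative controls. Its groups did not overlap, and the log2 difference was -0.57 (95% interval -1.01 to -0.13; limma, adjusted p = 0.286).

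The ligands Tnfsf9 and Tnfsf4 had the steepest differences of the set, at levels under the background limit. Tnfsf9 (4-1BB ligand) costimulates T cells through Tnfrsf9, and was at 5.45, 4.45 and 5.48 in MyD88-ko and at 6.18 and 6.53 in WT. All 3 MyD88-ko arrays were below both WT arrays, with MyD88-ko replicate 2 about a log2 unit under the others. The difference was -1.23 ± 0.33 (SE of the fit; limma, adjusted p = 0.233), with values from -1.41 to -0.89 when each array was left out. Tnfsf4 (OX40 ligand), which costimulates T cells through Tnfrsf4, was at 3.55, 3.64 and 3.87 in MyD88-ko and at 5.05 and 4.38 in WT. The groups did not overlap and the WT arrays were further apart than the MyD88-ko arrays. Its difference was -1.03 ± 0.21 (SE of the fit; limma, adjusted p = 0.167), -0.69 without WT replicate 1 and -1.36 without WT replicate 2. On the WT arrays Tnfsf9 was at most at the 92.8th and Tnfsf4 at the 77.2nd percentile of the negative controls.

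The other 2 measured ligands differed by less. Tnfsf14 (LIGHT), which binds Tnfrsf14 and the lymphotoxin β receptor, was at 5.60, 5.85 and 5.92 in MyD88-ko and at 6.17 and 5.96 in WT. These groups were separated by a narrow gap, with a log2 difference of -0.28 (95% interval -0.62 to 0.06; limma, adjusted p = 0.488), and -0.17 without WT replicate 1 or -0.18 without MyD88-ko replicate 1. Tnfsf13b (BAFF), the survival factor for B cells that myeloid cells supply, was at 4.60, 4.22 and 4.53 in MyD88-ko and at 4.42 and 4.01 in WT. It was the 1 gene of the 9 with a positive difference, 0.23 (95% interval -0.19 to 0.66; limma, adjusted p = 0.627), and its groups overlapped; the difference was 0.44 without WT replicate 1 and 0.027 without WT replicate 2. Neither ligand exceeded the limit on any array.

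**Figure D2:**
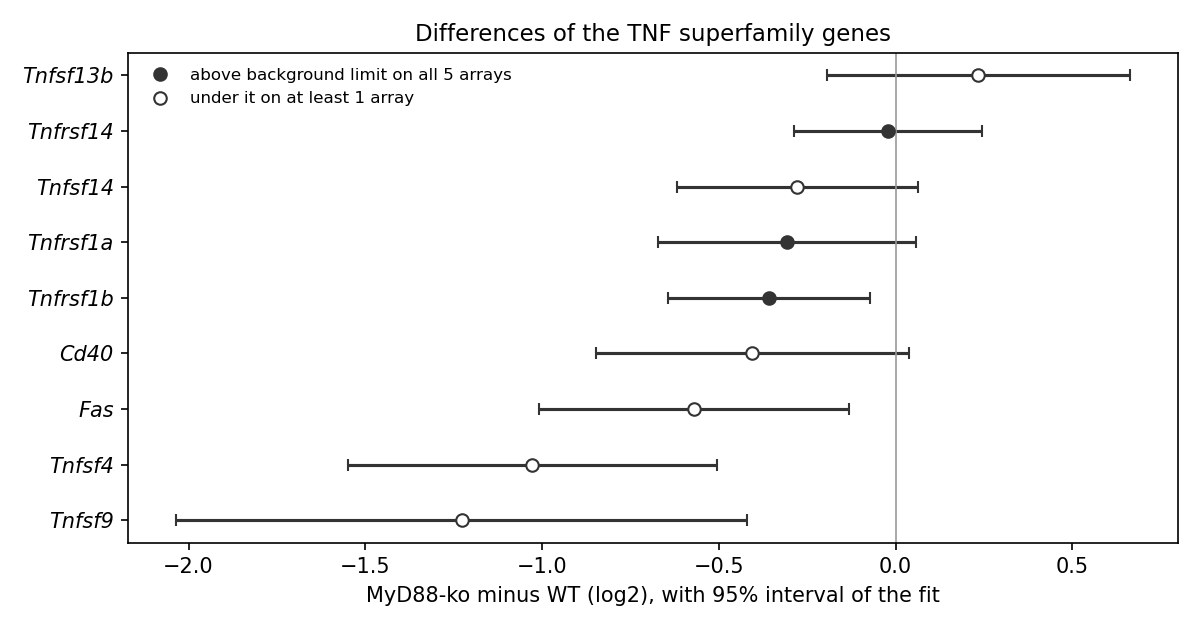
Log2 difference MyD88-ko minus WT of each measured gene with the 95% interval of the limma fit (3 against 2 arrays); filled points were above the background limit on all 5 arrays and open points under it on at least 1. The intervals of Tnfsf9, Tnfsf4, Fas and Tnfrsf1b exclude 0 before adjustment over all genes.

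Background itself was lower on the MyD88-ko arrays, at the levels where most of these genes lay. Of the 5222 negative controls, 3524 had a negative difference, with a median of -0.14, and the limit differed by -0.31 on average. The median difference of the controls was -0.27 between levels 4 and 5 (911 controls), -0.31 between 5 and 6 (561) and -0.24 between 6 and 7 (274), whereas that of genes was 0.032, 0.033 and 0.033. Between 8 and 9, where both TNF receptors lay, it was -0.0048 over 36 controls. The difference of Tnfsf14 (-0.28) was thus near the median of controls of like level, and those of Cd40, Fas, Tnfsf4 and Tnfsf9 were more negative than theirs. Tnfrsf14 (-0.02) was less negative than the controls between 7 and 8 (-0.15 over 102 controls), and Tnfsf13b (0.23) had the opposite sign to those of its level. The part of this shift in the results was not tested.

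**Figure D3:**
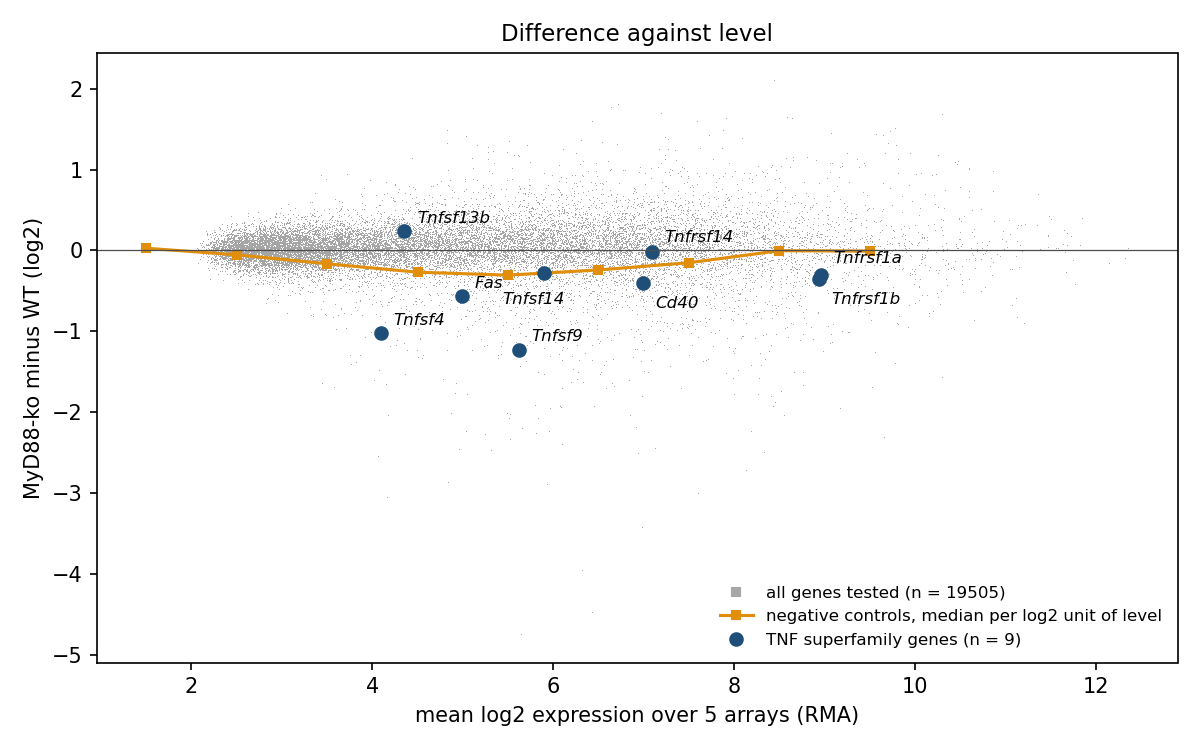
Log2 difference MyD88-ko minus WT against mean log2 expression over 5 arrays for all 19505 genes (grey), the 9 TNF superfamily genes (blue) and the median of negative-control probe sets in each log2 unit of level that held at least 20 of them (orange). The controls dip to -0.31 between levels 5 and 6, where Tnfsf14 lies on the line and Tnfsf9 lies below it.

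Markers of other myeloid cells also lay lower in MyD88-ko. Of 12 measured neutrophil markers, 11 had a negative difference, and their mean level was 4.34 to 4.69 on the MyD88-ko arrays against 6.59 to 7.00 on the WT arrays. All but Csf3r, 11 of the 12, were under the limit on every MyD88-ko array, and 4 of these on the WT arrays too. Of the 12, 6 passed the test over all genes (limma), all lower: S100a8, S100a9, Lcn2, Retnlg, Stfa2l1 and Cxcr2. Stfa2l1 was under the limit on all 5 arrays and Cxcr2 above it on 1 WT array only. Over all genes, 0.190% passed and 46.9% had a negative difference, which is the share to set beside the marker counts here. Of 7 classical monocyte markers, 6 were negative and 1, Hp, passed (limma), with mean levels of 7.35 to 7.89 against 9.01 to 9.26. Of 8 conventional dendritic cell markers, 6 were negative (4.05 to 4.45 against 4.59 to 4.84), and 6 never exceeded the limit. Macrophage markers had mean levels of 9.89 to 9.95 against 9.43 to 9.81, with 8 of 10 positive. In RNA of a whole sort, fewer cells of a type and less RNA per cell cannot be told apart. The sort took F4/80+ cells, and how many neutrophils it held was not measured here. The part of these other myeloid cells in the differences of the TNF superfamily genes was not tested.

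Binding partners of these genes were read next, to see which ligand and receptor pairs the sorted cells could supply. None of the 14 passed and 2, Tnf and Tnfrsf9, were lower at an unadjusted p under 0.05 (limma), where 6.39% of all genes were. Of the 14, 10 were negative with a median of -0.13, where 46.9% of all genes were negative. In 7 all MyD88-ko arrays lay under both WT arrays, where 12.9% of all genes did so. The limit was exceeded on no array by 8 of the 14. Cd40lg, Ltb, Btla and Tnfrsf13c belonged to both of these counts. TNF itself, the ligand of Tnfrsf1a and Tnfrsf1b, was above background on all arrays, at 8.09, 7.42 and 7.68 in MyD88-ko and at 9.40 and 8.92 in WT. The groups were well apart, and the log2 difference was -1.43, 2.69-fold lower in MyD88-ko (95% interval -2.00 to -0.86; limma, adjusted p = 0.123). Tnfrsf9, the receptor of Tnfsf9, was at 5.13, 4.88 and 6.30 in MyD88-ko and at 6.47 and 7.03 in WT. It exceeded the limit on 1 WT array and on no MyD88-ko array, with a log2 difference of -1.31 (limma, adjusted p = 0.296). Its WT mean of 6.75 was under both WT limits (6.91 and 6.96), so no fold is given. Thus ligand and receptor of the Tnfsf9 and Tnfrsf9 pair both had lower values in MyD88-ko, though neither passed.

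The partners of the less changed genes were close between the groups. Ltbr, the lymphotoxin β receptor that Tnfsf14 binds, had a difference of 0.04 (95% interval -0.38 to 0.46), and its sign turned without WT replicate 1 (-0.20). Tnfrsf13b (TACI), a receptor of Tnfsf13b, had a difference of 0.08 (-0.04 without WT replicate 1). Tnfrsf12a, the receptor of the ligand that was not analysed here, was at 6.88 ± 0.043 (SD, n = 3) and 7.00 ± 0.034 (SD, n = 2). Lta, a lymphotoxin that binds both TNF receptors, had means of 6.60 in MyD88-ko and 6.37 in WT. It was above its limit on 2 MyD88-ko arrays and on no WT array. Its 6.67 and 6.65 on those 2 arrays were under both WT limits. The lymphocyte genes Cd40lg, Fasl, Ltb, Btla, Cd160, Tnfrsf4, Tnfrsf13c and Tnfrsf17 did not exceed the limit on any array.

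No other ligand or receptor of the family passed (limma), counting again the partners above that belong to it. At an unadjusted limma p under 0.05, 1 other ligand, Tnf, was lower, and 4 other receptors, Tnfrsf9 among them, were lower and 1 higher. Over all genes, 6.39% were lower and 6.16% higher. Of 12 other ligands, 10 exceeded the limit on no array, 8 were negative and the median was -0.07, though -0.012 without WT replicate 1 and -0.032 and -0.037 without MyD88-ko replicates 1 and 3; besides Tnf and Lta, the lowest p-values belonged to Tnfsf10 (TRAIL; -0.48) and Eda (0.20). Of 22 other receptors, 14 were negative and 14 under the limit on all arrays, with a median of -0.07. Tnfrsf23, a decoy receptor for TRAIL, was at 5.62, 5.94 and 5.94 against 6.82 and 7.42, at least 1.40-fold lower in MyD88-ko (limma, adjusted p = 0.114). Relt had means of 5.90 and 6.80, both under the limit. Tnfrsf21 (death receptor 6) went the other way, at 6.89 ± 0.12 (SD, n = 3) and 6.44 ± 0.25 (SD, n = 2) (limma, adjusted p = 0.295). It was above the limit on all 3 MyD88-ko arrays and on no WT array. Limits were lower on the MyD88-ko arrays, and its 6.86 and 6.79 on MyD88-ko replicates 1 and 2 were under both WT limits.

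Downstream of the receptors, 1 gene passed. Nfkbia, the NF-κB inhibitor IκBα that NF-κB itself induces, fell from 10.55 and 10.70 in WT to 9.33, 9.06 and 9.27 in MyD88-ko. It was 2.64-fold lower (limma, adjusted p = 0.034), and the call was lost without any 1 of the 5 arrays (adjusted p 0.120 to 0.490) while the difference stayed between -1.47 and -1.32. It was 1 of 19 measured genes of the NF-κB arm, of which 14 were negative with a median of -0.29. Of the 19, 8 never exceeded the limit. At an unadjusted limma p under 0.05, 9 were lower and 0 higher, where 6.39% of all genes were lower and 6.16% higher. In 11 every MyD88-ko array lay under both WT arrays and in 1 above both, where 12.9% and 14.8% of all genes did so. Tnfaip3 (A20), the deubiquitinase that shuts down TNF receptor signalling, was at 9.05 ± 0.31 (SD, n = 3) and 10.32 ± 0.079 (SD, n = 2), a difference of -1.27 that did not pass (limma, adjusted p = 0.104). Nfkbie (IκBε) was at least 1.89-fold lower (limma, adjusted p = 0.144), and Nfkb2, the precursor of the non-canonical route that Cd40 uses, had means of 5.95 and 6.62 under the limit.

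Among 15 receptor adaptors and death signalling genes, 11 were negative with a median of -0.11. The median was -0.28 with WT replicate 2 left out, -0.24 with MyD88-ko replicate 1 left out, and -0.34 when Y-linked genes were a covariate. None passed, and 5 were lower and 1 higher at an unadjusted p under 0.05 (limma), where 6.39% and 6.16% of all genes were. Traf1, an adaptor of Tnfrsf9, Cd40 and Tnfrsf1b, was at 4.28, 5.15 and 5.55 against 7.50 and 6.66, which with 1 array above the limit is at least 1.37-fold lower (limma, adjusted p = 0.151). Birc3 (cIAP2), a ubiquitin ligase bound to TRAF2, had a difference of -1.12, 2.18-fold lower (limma, adjusted p = 0.137). Cflar (c-FLIP), which restrains caspase-8 at Fas and Tnfrsf1a, had a difference of -0.49 (limma, adjusted p = 0.191), and Birc2 had means of 4.63 and 5.49 under the limit. Of the 4 genes that shed TNF and its receptors, Adam17, the TNF-converting enzyme, differed by -0.22, Rhbdf2 by -0.16 and Adam10 by 0.31. Rhbdf1, under the limit on all arrays, had a difference of 0.44 (0.26 without WT replicate 1), with all MyD88-ko arrays above both WT arrays, and was the 1 gene of the 4 at an unadjusted p under 0.05; none of the 4 passed (limma, adjusted p = 0.278 for Rhbdf1).

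**Figure D4:**
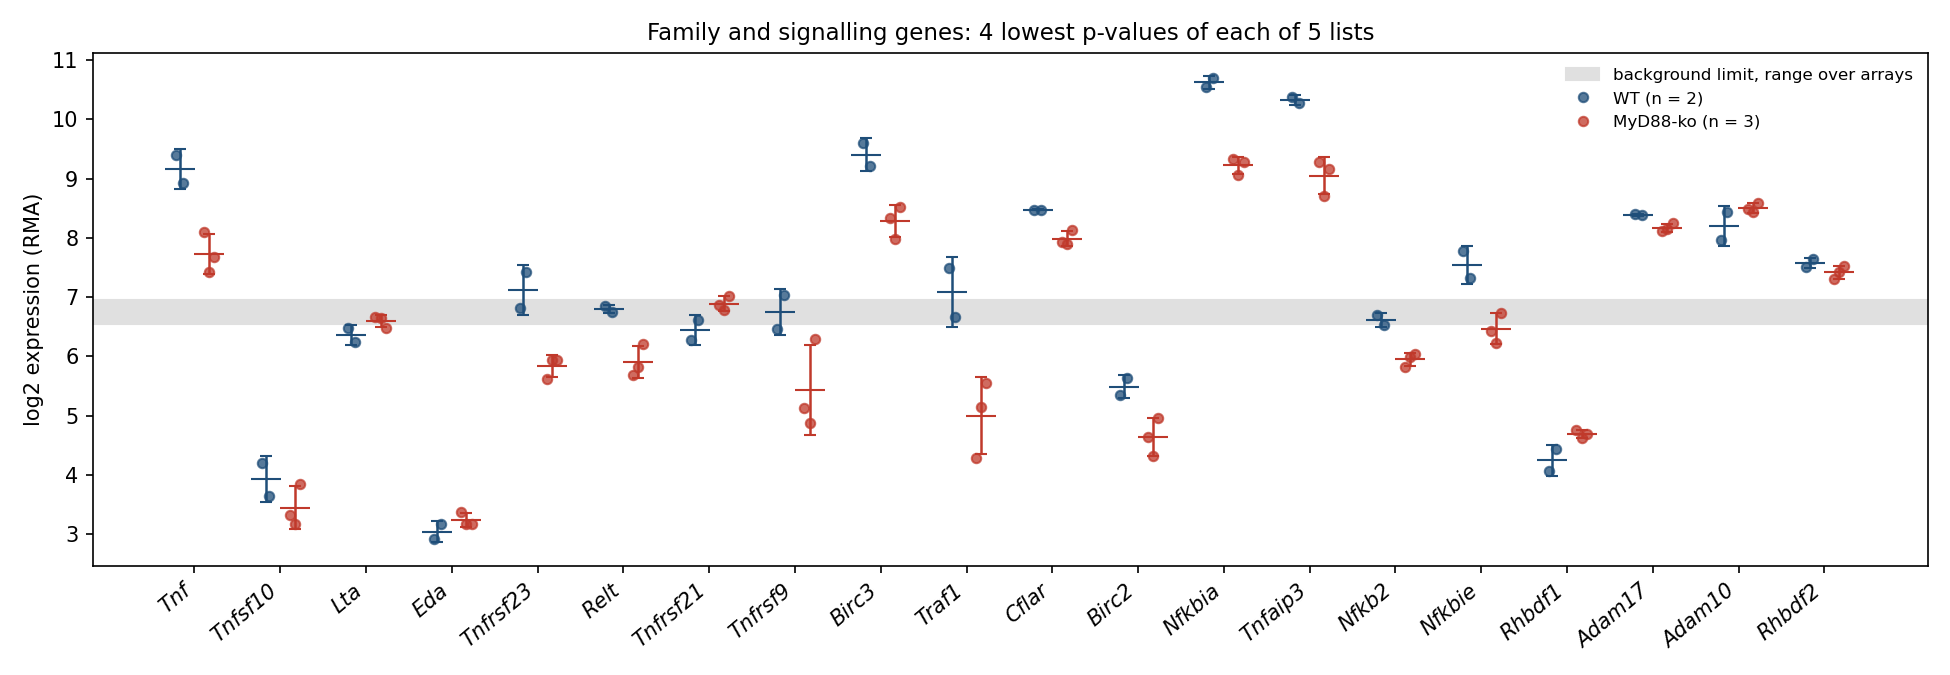
Log2 expression (RMA) on each array of the 20 genes with the 4 lowest p-values in each of 5 lists (other ligands, other receptors, adaptors, NF-κB arm, shedding), with points, means, SDs and the grey band of background limits as in the plot of the 9 genes. The MyD88-ko arrays lie below both WT arrays in 13 genes, above both in 3 (Tnfrsf21, Adam10 and Rhbdf1) and overlap them in 4. Because the genes were picked by p-value on the same arrays, such separation comes in part with the choice. Over all genes, 12.9% lie below both and 14.8% above both. Nfkbia passed the test over all genes.

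Cd40 had the most negative difference among the genes of the set that were above background on at least 1 array, and its pattern over the 5 arrays was set against 4701 other such genes. Nearest by root mean square difference of the centred log2 values were Psma7, a proteasome subunit (0.027), the class I gene H2-Q4 (0.041) and Ttc14 (0.045), with log2 differences of -0.43, -0.42 and -0.35. No gene of the set above background had a positive difference. Within the 9 genes, MyD88-ko replicate 2 was the lowest array of its group for 6 genes and the highest for none, and WT replicate 1 was the higher WT array for 6.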

How the data were processed

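Per the labels' protocols, total RNA (100 ng) was labelled with biotin after whole-transcript amplification. The deposited table holds log2 values that the authors made with RMA; the submitters' processing notes name Affymetrix Expression Console 1.1. Values of 1.55 to 12.66 fit a log2 scale. No genome build is given in the sources used here. Of 28846 rows, 19572 had exactly 1 gene symbol and were kept, and the other 9274, with no symbol or several, were left out. The probe set with the highest mean was kept for 55 genes with several. The 19505 genes went into limma 3.58.1 under R 4.3.3 (lmFit, eBayes, genotype as the only term, all 5 arrays), with Benjamini-Hochberg adjustment over all genes. The limma fit was tested on simulated data. No dim probe sets were removed. Arrays give no read depth, and their number limits the precision. Arrays correlated at 0.969 to 0.992 across genes.

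A fold is given as at least N where 1 group was under the background limit on all arrays, taking for the dim group, per array, the higher of limit and value, and not where both groups were under it. Named were all 10 listed genes, their partners, in each other list the 4 genes with the lowest p, and the 3 nearest patterns. The genes and lists were chosen with earlier results of these data known. The comparison with negative controls by level was chosen after seeing the data. Promoters were matched by symbol to RefSeq's table.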

Additional observations from a re-analysis of the deposited data

How the results depend on the processing

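None of the 9 genes passed limma's adjusted p under 0.05 in any of 16 alternatives (3 normalizations, 2 level filters, the mean of probe sets, 2 moderations, array weights, the replicate block, a covariate of Y-linked genes and each array left out). Genes lower at an unadjusted limma p under 0.05 numbered 3 or 4 with a MyD88-ko array left out and 3 to 5 otherwise. Over all genes, in either direction, 1691 to 2112 were under that p with a MyD88-ko array left out and 1818 to 2731 otherwise. Of the 9 genes, 5 to 7 lay lower without overlap (5 with the 50th percentile filter). Groups separate more easily with fewer arrays, so the 12.9% over all genes on 5 arrays is no measure for counts with an array left out. Tnfsf4 and Tnfsf13b did not reach the 50th percentile filter. With 1 WT array left out, the other is taken to have the spread of the MyD88-ko group. The median difference of the 9 ranged from -0.51 to -0.30. Signs turned for Tnfrsf14 (0.038 with equal medians, 0.028 with the Y-linked covariate, 0.00092 with the replicate block, -0.080 to 0.016 with an array left out). They also turned for Ltbr (-0.029 with the block, -0.080 with the covariate, -0.20 to 0.28 with an array left out) and for Tnfrsf13b (-0.044 to 0.20 with an array left out). The shedding list's median turned too (-0.16 with the 50th percentile filter, -0.016 with the covariate, -0.066 to 0.23 with an array left out). That filter removed Rhbdf1 from the list and left the difference of Rhbdf2 as its median. For the other turns of sign the cause was not tested. The median of the other ligands was -0.015 with equal medians, -0.20 and -0.099 with the 25th and 50th percentile filters and -0.037 with the block, and that of the NF-κB arm -0.42 with the covariate. All genes passing numbered 37, against 56 with quantile normalization again, 65 with cyclic loess, 15 with array weights, 0 with the covariate and 0 to 1 with an array left out. Replicate numbers are shared by 2 pairs (correlations of deviations 0.059 and 0.105), and nothing says that they pair mice. MyD88-ko replicate 3 and WT replicate 1, with unlike numbers, gave 0.054. With 2 WT arrays, each MyD88-ko array must correlate positively with 1 of them, so these values cannot show pairing. With the replicate block 70 genes passed (limma), Tnf among them (adjusted p = 0.0496) and Nfkbia not (0.0536). Only MyD88-ko has a replicate 3, so in that fit this array does not enter the difference. The median of the 9 genes was -0.43 both with the block and without MyD88-ko replicate 3. Nfkbia also did not pass with array weights (0.0526) or the covariate (0.231). At the 90th percentile of controls, 4 of the 9 genes were above background on all arrays, against 3.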
